A study of Mus musculus with 9 samples.

Results

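Mitochondrial ribosomal proteins are the proteins named Mrpl, for the large subunit, and Mrps, for the small subunit, of the ribosome inside mitochondria. The genes were chosen by symbol alone, as the rows whose name begins with Mrpl or Mrps and a number and is not that of a pseudogene, which gave 78 rows and 77 genes of 46072 rows in all. Mrps23 had a second row, listed at 0 in all 9 libraries, and the row of higher level was kept. RNA sequencing was done on splenic monocytes, isolated with magnetic beads that remove other cells, of female C57BL/6 mice, 9 in all, in groups of 3. Those named Con received water by gavage, those named Van received 2 mg of the antibiotic vancomycin per mouse per day in gavages of 1 mg, and in both the gavage lasted 6 days and was followed by 8 days of rest, the upper end of the 6 to 8 days in the labels. Those named VanLip had the same vancomycin and were then given L654, a lipid that bacteria of the phylum Bacteroidota make and that signals through TLR2, by retro-orbital injection on days 7, 9 and 11.

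The mitochondrial ribosome translates the few proteins that the mitochondrial genome encodes, which are core subunits of the respiratory chain and ATP synthase. Its RNAs are made inside the organelle, whereas its proteins are encoded in the nucleus, made in the cytosol and imported. Some of these proteins descend from bacterial ribosomal proteins and others are found only in mitochondria. The bacterial ancestry is also why some antibiotics that stop bacterial ribosomes act on mitochondria, but vancomycin blocks cell wall synthesis and is poorly absorbed from the gut. In monocytes, respiration is one of the main sources of energy, and its use is known to shift on activation.

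Of the 77 genes, 48 were named Mrpl and 29 Mrps. By the place of the protein, 50 were of the large and 26 of the small subunit, since Mrps30 and Mrps18a are proteins of the large subunit. Mrps36 was of neither, as it is now known as a part of the 2-oxoglutarate dehydrogenase complex. By the systematic names of ribosomal proteins, 46 were classed as having a bacterial homolog and 30 as specific to mitochondria. The latter include Mrps18a and Mrps18b, which are related to Mrps18c, a protein of the former class. The genes lay on 17 chromosomes of the GRCm38 annotation and 0 of them on the X. All 77 had a value above 0 in all 9 libraries and an adjusted p in each comparison, so no gene was lost to a filter on low values.

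A second gene, encoding a protein and transcribed in the other direction from a start within 1000 bases, lay beside 23 of the 77 genes, or 29.9%, against 11.8% of 12933 protein-coding genes tested. The promoters, taken from RefSeq on GRCm38.p6 as 250 bases before and 50 bases after the annotated start, were matched for 68 of the 77 genes. They are shown because these genes share a mode of control in textbooks, by the nuclear respiratory factors NRF1 and NRF2 (the latter also named GABP, of the ETS family) and by YY1. A set of 3 short motifs were searched on both strands, namely CATGCGC for NRF1, CCGGAAG for ETS and GABP, and AAGATGG for YY1. The GABP core was present in 36.8% of the 68 genes against 19.5% of 9814 tested and 12.9% of all 17492 protein-coding genes with a promoter. The YY1 core was present in 19.1% of the 68 genes against 8.31% of those tested and 7.18% of all, and its letters also contain ATGG, which a start codon followed by G would supply. The NRF1 core was present in 11.8% of the 68 genes against 7.79% of those tested and 5.4% of all. The 3 motifs do not contain one another, and the median GC content was 58.5% for the 68 genes and 60.3% for the genes tested. A match describes letters in the window, not binding.

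Promoters of 4 genes are printed, chosen as those that passed the test in at least 1 comparison and held a motif, with the motif in capitals on whichever strand it was found. Positions are counted from the RefSeq start as 0, with negative values before it. In Mrps7 (chr11:115603890-115604189, plus strand) the YY1 core began at position 18. In Mrps26 (chr2:130563507-130563806, plus strand) the GABP core began at position -14, on the opposite strand. In Mrps16 (chr14:20393441-20393740, minus strand) GABP cores began at positions -74 and 24, both on the opposite strand. In Mrpl33 (chr5:31613701-31614000, plus strand) the NRF1 core began at position -12, on the opposite strand, and the GABP core at position -3. In all 4 genes the RefSeq start used lies inside the longer gene of the GENCODE annotation, so part of each window is within that gene.
Mrps7: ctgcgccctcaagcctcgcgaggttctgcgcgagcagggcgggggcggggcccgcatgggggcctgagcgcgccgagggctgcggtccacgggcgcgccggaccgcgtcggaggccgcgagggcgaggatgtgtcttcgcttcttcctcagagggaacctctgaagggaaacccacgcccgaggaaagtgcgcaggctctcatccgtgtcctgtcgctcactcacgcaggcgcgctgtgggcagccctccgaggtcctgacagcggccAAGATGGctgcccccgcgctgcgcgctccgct
Mrps26: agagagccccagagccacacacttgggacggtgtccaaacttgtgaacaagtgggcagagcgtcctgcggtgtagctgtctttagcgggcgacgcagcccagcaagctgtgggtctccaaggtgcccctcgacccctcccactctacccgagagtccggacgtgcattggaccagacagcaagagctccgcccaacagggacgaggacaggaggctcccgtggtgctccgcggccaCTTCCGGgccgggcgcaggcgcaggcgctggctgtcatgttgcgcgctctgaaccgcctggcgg
Mrps16: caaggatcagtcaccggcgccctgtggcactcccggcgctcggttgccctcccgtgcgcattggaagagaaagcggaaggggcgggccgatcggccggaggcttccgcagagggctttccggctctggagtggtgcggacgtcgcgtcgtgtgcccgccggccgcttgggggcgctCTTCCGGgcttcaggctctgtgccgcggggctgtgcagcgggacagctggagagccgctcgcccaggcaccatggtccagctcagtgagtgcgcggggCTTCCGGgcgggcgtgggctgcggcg
Mrpl33: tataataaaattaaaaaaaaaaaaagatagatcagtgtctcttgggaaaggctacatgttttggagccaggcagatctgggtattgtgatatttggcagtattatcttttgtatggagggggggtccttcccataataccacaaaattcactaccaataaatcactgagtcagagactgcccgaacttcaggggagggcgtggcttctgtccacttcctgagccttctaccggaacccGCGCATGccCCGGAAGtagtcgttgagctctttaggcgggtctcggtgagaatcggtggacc
The promoters of Mrps6 and Mrps9 and a second promoter of Mrps16, at the GENCODE start of that gene, held none of the 3 motifs in the same window. For Mrpl38, which also passed the test, no promoter was matched.

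Libraries of Con and Van held 16151327 to 23018836 fragments and those of VanLip 42625870 to 46180125, by conversion of the counts. The size of 1 read in the counts corresponded to reads of 100 bases in the 6 Con and Van libraries and of 150 bases in the 3 VanLip libraries. A single read length, the shorter of these, is stated for all libraries, so the 150 bases and the fragment numbers of VanLip rest on the counts alone. Read length, depth and L654 treatment therefore cannot be told apart in any comparison with VanLip. The study's methods give PBS as the vehicle for such injections, whereas the labels list no injection for mice without L654. If Con and Van mice had none, an effect of the injection cannot be told apart from one of L654. Among marker lists, monocyte genes summed to 9901 to 12414 FPKM (fragments per kilobase of transcript, scaled to library depth) over all libraries, against 9.14 to 13.4 for B cells, 1.58 to 3.81 for T and NK cells, 2.15 to 12.6 for neutrophils, 5.73 to 23.8 for platelets and 115 to 153 for conventional dendritic cells. Red pulp macrophage genes summed to 983 to 1503 FPKM and proliferation genes to 81.9 to 110.9 FPKM. The monocyte sum was mostly Lyz2, at a mean of 7922 FPKM. Single genes also held much of other sums, namely Hmox1 (red pulp macrophage) at 598 FPKM, Itgax (dendritic cell) at 71.1 and Pcna (proliferation) at 68.4. Erythroid genes summed to 99.9 to 203 FPKM in Con, 343 to 773 in Van and 279 to 1165 in VanLip. As these are bulk samples, fewer cells of a type and less RNA per cell cannot be told apart.

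The 77 genes were all expressed, at mean levels from 1.49 FPKM for Mrpl47 to 57.3 FPKM for Mrpl33, a 38.4-fold span. Between 5 and 20 FPKM lay 51 genes, above 20 lay 14 and under 5 lay 12. The 5 highest were Mrpl33 at 57.3 FPKM, Mrps21 at 47.3, Mrpl52 at 47.2, Mrpl24 at 40.2 and Mrpl30 at 35.7, and together they held 21.4% of the summed FPKM. The 5 lowest were Mrpl47 at 1.49 FPKM, Mrpl19 at 2.74, Mrpl53 at 2.85, Mrpl35 at 2.95 and Mrpl1 at 3.52. Assembled ribosomes hold these proteins in equal number, apart from the stalk protein Mrpl12, which is present in several copies.

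The median level was 12.3 FPKM for genes of the large subunit and 9.07 FPKM for the small subunit. The ratio of these medians stayed between 1.29 and 1.53 over the 9 libraries. Genes with a bacterial homolog had a median of 13.8 FPKM and those specific to mitochondria 7.92 FPKM, against 4.20 FPKM over all genes tested. Among the related trio Mrps18a, Mrps18b and Mrps18c mean levels were 17.8, 10.5 and 18.9 FPKM. The large subunit protein Mrps30 averaged 12.4 FPKM and Mrps36 13.1 FPKM. Pseudogene copies of Mrps36, Mrpl23 and Mrpl48 reached at most 2.54 FPKM and were called in no comparison, although near-identical copies can exchange reads.

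**Figure D1:**
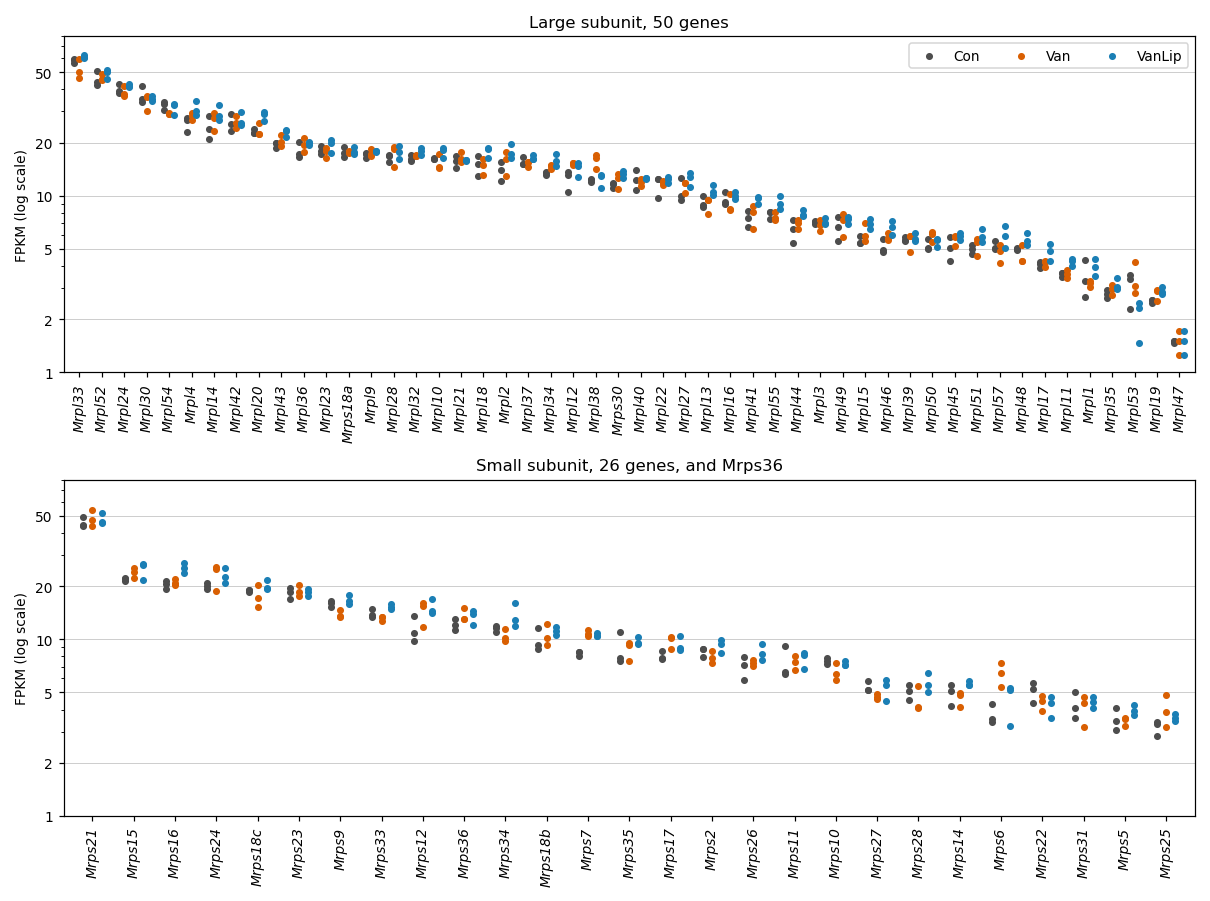
Level of each gene in each library, in FPKM on a log axis, with genes of the large subunit above and of the small subunit with Mrps36 below, ordered by mean level. Points are the 3 libraries of Con, Van and VanLip, and the order of the genes spans 38.4-fold while the points of 1 gene lie close together.

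Summed over the 77 genes, FPKM was 999, 1040 and 1032 in the Con libraries, 981, 1075 and 1081 in Van, and 1101, 1176 and 1096 in VanLip. The mean sum was 1024 ± 21.6 for Con, 1046 ± 56.1 for Van and 1124 ± 45.0 for VanLip (SD over 3 libraries). All 3 VanLip sums lay above all 6 others, and the Van sums lay on both sides of those of Con. As a share of all FPKM this was 0.254% to 0.265% in Con, 0.253% to 0.275% in Van and 0.282% to 0.289% in VanLip.

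Within a group the genes were steady. The median SD of log2 normalized counts over replicates was 0.0909 in Con, 0.108 in Van and 0.085 in VanLip. It was 0.124, 0.116 and 0.136 over the 13500 genes tested that averaged 50 or more normalized counts. These were not matched to the 77 genes for count level. Mrpl53, a low gene inside another annotated gene on its strand, had the highest SD of the 77 in each group, from 0.315 to 0.389. The libraries of 1 group nevertheless differed together. In Van the first library had 16 of 77 genes above their own mean over the 9 libraries, the second 36 and the third 55. In Con these numbers were 20, 29 and 22, and in VanLip 58, 68 and 58. The median deviation ran from -0.10 to 0.04 on the log2 scale in Van, from -0.06 to -0.02 in Con and from 0.06 to 0.11 in VanLip, while that over all genes averaging 50 or more normalized counts stayed between -0.00268 and 0.00818.

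**Figure D2:**
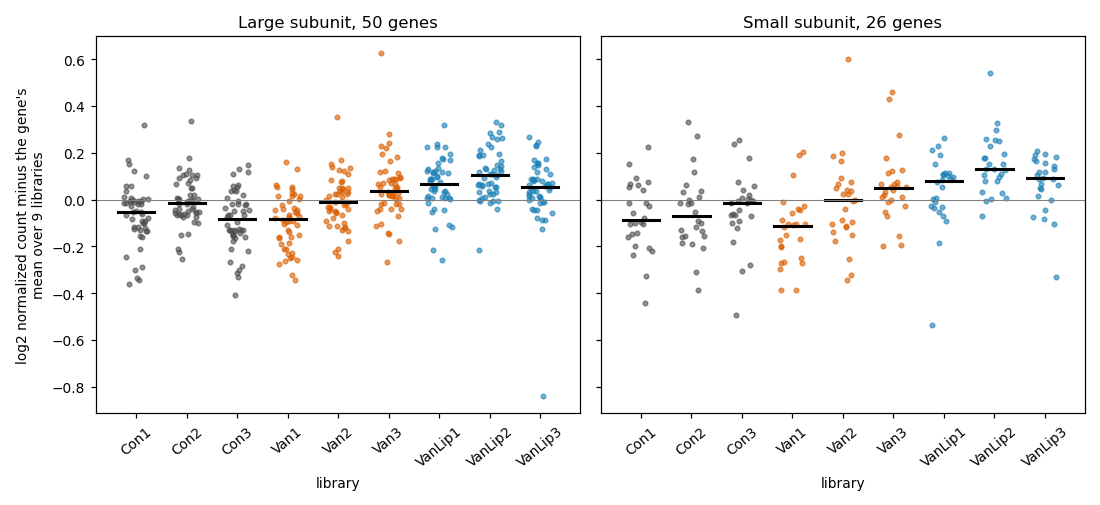
Deviation of each gene's log2 normalized count from its own mean over the 9 libraries, by library, for 50 genes of the large and 26 of the small subunit. Points are genes and black lines medians, which lie above 0 in the 3 VanLip libraries in both subunits and on both sides of 0 in Van.

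The first comparison asked whether vancomycin altered these genes in the monocytes. The genes showed no common shift, with a median log2 fold change of 0.02 (1.64% higher in Van) against -0.01 over all genes, and 68 of 77 lay within 0.2 of 0. Only Mrps7 and Mrps6, both of the small subunit, were called, and both were higher in Van. That is 2.60% of the 77 genes against 4.33% of 18526 genes tested (2.27% higher and 2.06% lower), by the DESeq2 Wald test at a Benjamini-Hochberg adjusted p of 0.05. Before adjustment, 6 genes were higher (7.79%, against 7.55%) and 2 lower (2.60%, against 7.32%) at p under 0.05. Fitted values above 0 numbered 44 of 77, against 48.8% over all genes. The Van libraries lay wholly above those of Con for 7 genes (9.09%, against 10.4%) and wholly below for 4 (5.19%, against 10.3%). The median was 0.03 for the large and -0.01 for the small subunit. In the same comparison 5 of 8 erythroid markers were called higher (0 by edgeR), at sums of 99.9 to 203 FPKM in Con and 343 to 773 FPKM in Van. Of 11 monocyte markers 1 was called lower (0 by edgeR), Ccr2 at -0.83 (adjusted p = 0.00048, DESeq2). Of 8 conventional dendritic cell markers 2 were called lower (1 by edgeR), Clec9a at -1.12 and Xcr1 at -0.85, at sums of 134 to 153 FPKM in Con and 116 to 140 FPKM in Van. Of 7 red pulp macrophage markers 1 was called higher (0 by edgeR), Vcam1 at 0.46, with 7 of 7 fitted above 0 and sums of 983 to 1173 FPKM in Con and 1117 to 1503 FPKM in Van. The B cell and neutrophil lists, of 8 genes each, had 1 gene called lower in each (0 by edgeR), Ighd and Retnlg. These markers were named after their values were seen. The part of these lists in the values of the 77 genes was not tested.

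Mrps7, a small subunit protein of the head with a bacterial homolog, was the steadiest call. Its level was 8.50, 8.44 and 8.05 FPKM in Con, 10.4, 11.3 and 10.7 FPKM in Van, and 10.4, 10.9 and 10.5 FPKM in VanLip. The Con libraries lay below the other 6, and those of Van and VanLip overlapped. The log2 fold change was 0.37 ± 0.074 in Van (SE, adjusted p = 0.000083, DESeq2) and 0.33 ± 0.0716 in VanLip (SE, adjusted p = 0.000278, DESeq2), each against Con. The call held without any 1 library, and of the other settings only limma with a pseudocount of 0.1 lost it, for Van against Con (adjusted p = 0.0706). Mrps7 (chr11:115603925-115608036, plus strand) starts within Gga3, which runs the other way and begins 126 bases inside it, and Gga3 was not called in any comparison. Mif4gd, also on the other strand, overlaps Mrps7 too, at a mean of 22.8 FPKM. It was at 0.11, 0.03 and -0.08 for Van against Con, VanLip against Con and VanLip against Van, and was not called. The part of both neighbours in the value of Mrps7 was not tested.

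Mrps6, a small subunit protein also with a bacterial homolog, was 4.32, 3.56 and 3.40 FPKM in Con, 5.35, 7.32 and 6.45 FPKM in Van, and 3.24, 5.32 and 5.16 FPKM in VanLip. All Van values lay above the Con and VanLip values, with 1 VanLip library below all of Con. The log2 fold change for Van against Con was 0.74 ± 0.226 (SE, adjusted p = 0.0294, DESeq2). The call was lost in turn without library 2 or 3 of Con or library 2 or 3 of Van (adjusted p = 0.117 to 0.217), and under 5 of the 11 other ways of processing, edgeR (adjusted p = 0.129) and each limma fit among them. Mrps6 (chr16:92058270-92112227, plus strand) contains Slc5a3, the myo-inositol transporter, on the same strand. Slc5a3 rose by 1.15 in Van on the log2 scale (SE 0.1845, adjusted p = 2.19e-07, DESeq2), from 0.202 to 0.267 FPKM in Con to 0.492 to 0.533 FPKM in Van, and its part in the value of Mrps6 was not tested.

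Of genes below the threshold, the next in Van were Mrpl38 at 0.33, the stalk protein Mrpl12 at 0.29 and the decoding-site protein Mrps12 at 0.37, with adjusted p from 0.0848 to 0.214 (DESeq2). Mrpl38 was called without the first Van library, as was Mrps12, and the count was then 4. The lowest p among the negative values belonged to Mrps9 at -0.21, Mrps10 at -0.21, Mrpl54 at -0.17, Mrps27 at -0.20 and Mrpl33 at -0.16 (adjusted p from 0.265 to 0.53, DESeq2).

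The second comparison asked how the genes stood after vancomycin followed by L654, against water. Here the 77 genes lay to one side, by a small amount. The median log2 fold change was 0.13, or 9.58% higher in VanLip, against 0.01 over all genes, and 68 of 77 fitted values were above 0 (88.3%, against 51.5% over all genes and 52.9% over genes averaging 50 or more normalized counts). The VanLip libraries lay wholly above those of Con for 31 genes, or 40.3%, against 12.2% over all genes, and wholly below for 0, against 11.3%. The values were alike in both subunits, with a median of 0.13 in the large (44 of 50 above 0) and 0.14 in the small (23 of 26 above 0). They were 0.15 for genes with a bacterial homolog (43 of 46 above 0) and 0.11 for mitochondria-specific genes (24 of 30 above 0).

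Single genes rarely passed the test. Only 3 were called, all higher in VanLip, which is 3.90% against 6.67% of 16565 genes tested (2.98% higher and 3.69% lower), and before adjustment 18 were higher (23.4%, against 9.1%) and 0 lower (against 9.52%) at p under 0.05 (DESeq2). With edgeR and with each limma fit 1 was called, Mrps7, and with TMM library sizes 5. Without the second Con library, or the first or second VanLip library, 1 was called, and without the third VanLip library 5. The erythroid list rose in the same comparison, in 8 of 8 genes (5 by edgeR), from 99.9 to 203 FPKM in Con to 279 to 1165 FPKM in VanLip, with Klf1 at 0 in the first Con library. Conventional dendritic cell markers were called lower for 2 of 8 and neutrophil markers for 1 of 8 (0 by edgeR in both). Only 6 of the 8 neutrophil genes had an adjusted p. The erythroid sum was 279, 1165 and 1088 FPKM in the 3 VanLip libraries, which had 58, 68 and 58 of the 77 genes above their mean. The part of these lists in the values was not tested. Correction for transcript length, in which these genes are short (median relative length 0.578 against 1.25), left a median of 0.11 with 61 of 77 above 0.

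Mrps16, a small subunit protein with a bacterial homolog, was 21.3, 19.2 and 20.5 FPKM in Con, 20.1, 21.9 and 20.9 in Van, and 25.4, 26.9 and 23.8 in VanLip. All VanLip values lay above the other 6, and Con and Van overlapped. It was called in both comparisons with VanLip, with log2 fold changes of 0.30 ± 0.0931 against Con (SE, adjusted p = 0.026, DESeq2) and 0.27 ± 0.0925 against Van (SE, adjusted p = 0.0441, DESeq2). Against Con the call was lost under 7 of the 11 other ways of processing and against Van under 9. The log2 fold change over these 11 stayed at 0.25 to 0.32 against Con and 0.21 to 0.29 against Van. With the VanLip fragments thinned to the depth of the other libraries it was 0.25 and 0.21, and neither call was kept (adjusted p = 0.26 and 0.315, DESeq2). The call was lost against Con without any of 6 libraries in turn (Con 2 or 3, Van 2 or 3, VanLip 1 or 2; adjusted p = 0.0573 to 0.192). Against Van it was lost without any 1 library except VanLip 3 (adjusted p = 0.0566 to 0.215). Mrps16 lies at chr14:20389304-20393634, on the minus strand.

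Mrps26, specific to mitochondria, lies at chr2:130563742-130568695 on the plus strand. Its normalized count was 967, 1063 and 1206 in Con, 1006, 1244 and 1259 in Van, and 1453, 1448 and 1378 in VanLip. The VanLip counts lay above the other 6, and the log2 fold change against Con was 0.40 ± 0.123 (SE, adjusted p = 0.0221, DESeq2). In FPKM the groups overlapped, at 5.86, 7.14 and 7.96 in Con and 8.25, 9.45 and 7.62 in VanLip, and limma on FPKM gave 0.23 to 0.25 (adjusted p from 0.264 to 0.404). The call was also lost under edgeR (adjusted p = 0.1), with the transcript length offset (adjusted p = 0.0513, DESeq2) and without the first or second library of Con or of VanLip (adjusted p from 0.0956 to 0.181, DESeq2).

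The next by p were Mrpl20 at 0.29 (adjusted p = 0.0522, DESeq2) and Mrpl46 at 0.34 (adjusted p = 0.0871, DESeq2). Mrpl20, a large subunit protein, was 22.6, 23.9 and 22.6 FPKM in Con, 22.4, 22.4 and 25.9 in Van and 29.2, 29.8 and 26.4 in VanLip, with all VanLip values above the other 6. At the other end, Mrpl53 was at -0.52 and Mrps22 at -0.28, followed by Mrpl54 and Mrpl30, both at -0.07, and Mrps27 at -0.04 (adjusted p from 0.316 to 0.914, DESeq2). Of the trio, Mrps18a was at 0.02, Mrps18b at 0.14 and Mrps18c at 0.15, Mrps30 was at 0.18 and Mrps36 at 0.13, and none of these 5 was called.

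**Figure D3:**
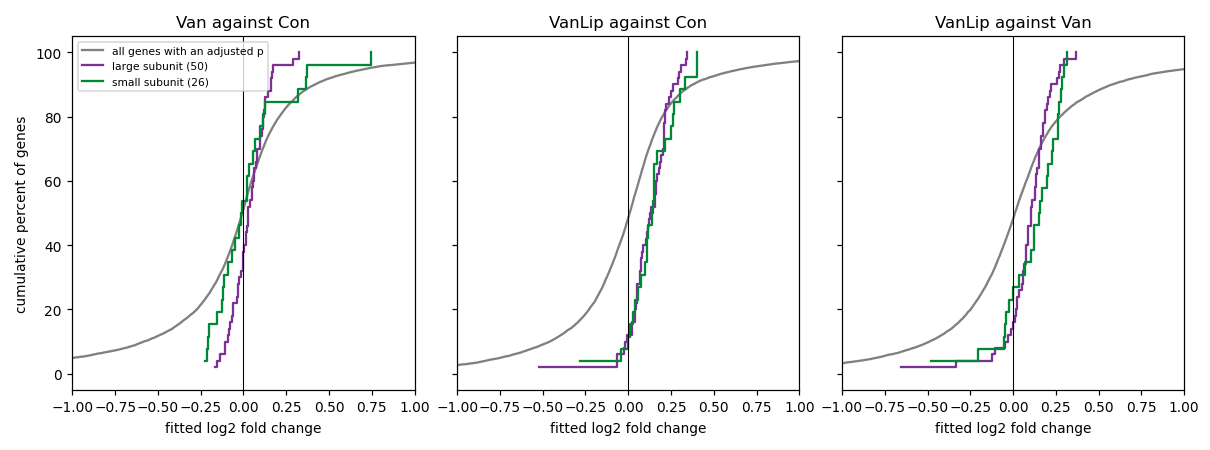
Cumulative percent of genes against the fitted log2 fold change, cut at -1 and 1, for the large and small subunit and for all genes with an adjusted p, in each comparison. The subunit curves cross those of all genes near 0 for Van against Con and lie mostly to the right of 0 in both comparisons with VanLip, with 44 of 50 large and 23 of 26 small subunit genes above 0 against Con and 43 of 50 and 20 of 26 against Van.

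The third comparison, of VanLip with Van, asked how mice given L654 after vancomycin differed from those given vancomycin alone, and shares its VanLip libraries with the second. The median log2 fold change was 0.12, or 8.78% higher in VanLip, against 0.01 over all genes, with 63 of 77 fitted values above 0 (51.9% over all genes). It was 0.10 in the large and 0.15 in the small subunit. Called were 4 genes, Mrpl33, Mrps9 and Mrps16 higher and Mrpl38 lower, which is 5.19% against 9.85% of 18035 genes tested (4.58% higher and 5.27% lower, DESeq2). Before adjustment 15 were higher (against 10.3%) and 3 lower (against 10.6%) at p under 0.05. The VanLip libraries lay wholly above those of Van for 19 genes (24.7%, against 13.1% over all genes) and wholly below for 4 (5.19%, against 12.8%). Of the 11 monocyte markers 3 were called higher in the same comparison (2 by edgeR) and 8 were not called, with a median of 0.20. The 3 were Ccr2 at 1.04 (adjusted p = 7.38e-07, DESeq2), Cx3cr1 at 0.43 (adjusted p = 0.00264, DESeq2) and Ly6c2 at 0.39 (adjusted p = 0.0262, DESeq2), while Cd14 at -0.46, Nr4a1 at -0.16 and Csf1r at -0.10 were among those not called. The summed level of the list, mostly Lyz2 (at 0.13 and not called), was 9901 to 11211 FPKM in Van and 11058 to 12414 FPKM in VanLip, with none at 0 in all libraries. Of conventional dendritic cell markers 2 of 8 were called higher (0 by edgeR), Clec9a at 0.67 and Batf3 at 0.45. Of red pulp macrophage markers 1 of 7 was called lower (also by edgeR), Vcam1 at -0.50, with 1 of 7 fitted above 0. These markers were named after their values were seen, and their part in the values of the 77 genes was not tested. The count of called ribosomal protein genes fell to 0 without the second Van library, to 1 under edgeR and to 2 with thinned fragments, while the median stayed between 0.0783 and 0.145 over all settings.

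Mrpl33, a small protein of the large subunit with a bacterial homolog and the highest of the 77 genes, was 58.6, 59.5 and 56.7 FPKM in Con, 46.6, 50.4 and 59.3 in Van and 62.6, 60.5 and 61.0 in VanLip. The third Van library lay within the Con values and the other Van libraries below them, with VanLip above both groups. The log2 fold change for VanLip against Van was 0.37 ± 0.101 (SE, adjusted p = 0.00628, DESeq2), and 0.22 by limma on FPKM (adjusted p from 0.188 to 0.313). It was lost without the first or second Van library or the first VanLip library (adjusted p = 0.0529 to 0.0709, DESeq2). Mrpl33 (chr5:31596935-31664384, plus strand) overlaps Rbks, the ribokinase gene, on the other strand. Rbks was called in both comparisons with Van, at -0.44 for Van against Con (adjusted p = 0.0236, DESeq2) and 0.36 for VanLip against Van (adjusted p = 0.0489, DESeq2). The kit marks strand, but whether the authors' counting used it is not given in the sources used here, and the part of Rbks in the value of Mrpl33 was not tested.

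Mrps9 (chr1:42851233-42905683, plus strand), a small subunit protein with a bacterial homolog, was 16.1, 15.3 and 16.4 FPKM in Con, 14.7, 13.6 and 13.4 in Van and 17.9, 15.9 and 16.4 in VanLip. Van lay below the other 6 libraries, and Con and VanLip overlapped. The log2 fold change was 0.28 ± 0.0954 (SE, adjusted p = 0.0366, DESeq2), and the call was lost under 8 of the 11 other ways of processing, edgeR among them (adjusted p = 0.0729), and in turn without 7 of the 9 libraries (all but the first of Van and the second of VanLip; adjusted p from 0.0591 to 0.222).

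Mrpl38 (chr11:116131817-116138868, minus strand), a mitochondria-specific protein of the large subunit that no other annotated gene overlaps, went the other way. It was 11.9, 12.4 and 12.3 FPKM in Con, 14.1, 16.9 and 16.4 in Van and 11.1, 13.2 and 12.9 in VanLip. Van lay above the other 6 libraries, and Con and VanLip overlapped. The log2 fold change for VanLip against Van was -0.33 ± 0.114 (SE, adjusted p = 0.0372, DESeq2), lost under 7 of the 11 other ways of processing, edgeR among them (adjusted p = 0.0965), and in turn without 7 of the 9 libraries (all but the first of Van and the second of VanLip; adjusted p from 0.0581 to 0.242).

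Not called in this comparison were Mrpl20 at 0.28 (adjusted p = 0.0526, DESeq2) and Mrps2 at 0.23 (adjusted p = 0.0773, DESeq2), nor Mrpl53 at -0.65, Mrps6 at -0.48, Mrps25 at -0.21 and Mrpl50 at -0.12 (adjusted p from 0.141 to 0.55, DESeq2). For Slc5a3, which Mrps6 contains, the same comparison gave -1.71 (SE 0.1771, adjusted p = 3.23e-19, DESeq2). For VanLip against Con, Slc5a3 was called lower at -0.56 (adjusted p = 0.0405, DESeq2), where Mrps6 was at 0.26 and not called.

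**Figure D4:**
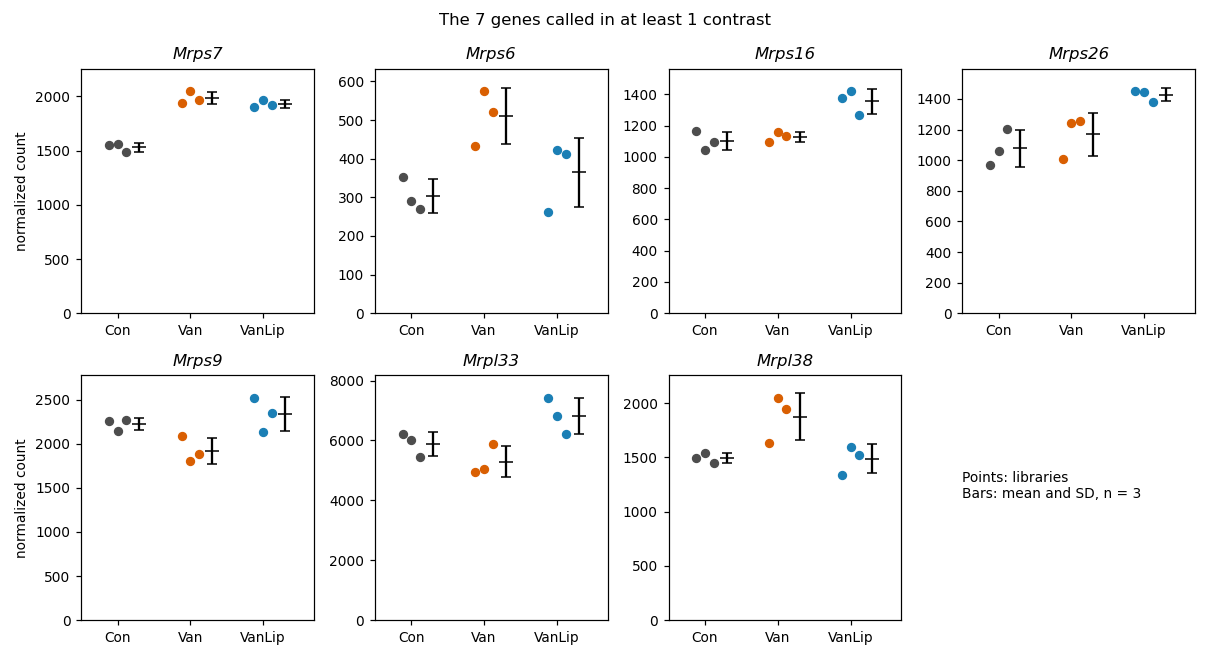
Normalized count by library for the 7 genes called in at least 1 comparison, on axes that start at 0. Points are libraries and bars the mean and SD of 3, and only Mrps7 has both Van and VanLip wholly above Con with a call in both comparisons.

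Neighbours that share a start region with 1 of the 77 genes were examined in the same fit. Of 22 such neighbours with an adjusted p, 1 was called in the first comparison, 1 in the second and 2 in the third (DESeq2). Over all genes tested the share called was 4.33%, 6.67% and 9.85%, so these counts lie near the background. The ribosomal protein gene beside each called neighbour was not called there, as was the case for most of the 77 genes. These pairs were Mrps18b with Ppp1r10, Mrpl2 with Klc4, Mrpl32 with Psma2, and Mrpl36 with Ndufs6, a subunit of respiratory complex I. They were chosen after their values were seen.

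The rest of the pathway was examined by lists drawn up from general knowledge, tested with DESeq2 in the same fit. Over all genes tested the share called was 4.33% in the first comparison, 6.67% in the second and 9.85% in the third. The 5 ribosomal proteins with other names (Dap3, Ptcd3, Aurkaip1, Chchd1 and Gadd45gip1) gave 0 calls of 5 in each comparison, with 0, 1 and 0 genes at an unadjusted p under 0.05 and 0 by edgeR. Dap3, a small subunit GTPase, was at 0.08 in the first comparison, 0.02 in the second and -0.06 in the third. Of 15 translation factors, Gfm2, which recycles ribosomes, rose by 0.26 in VanLip against Con (adjusted p = 0.0262, DESeq2), a call lost under edgeR (adjusted p = 0.0911). Guf1, an elongation factor that moves the ribosome back, rose by 0.61 in VanLip against Van (adjusted p = 0.000359, DESeq2) and was also called by edgeR (adjusted p = 0.0202). None of the 15 was called for Van against Con, where 2 were higher and 2 lower at an unadjusted p under 0.05 and edgeR called 0. Tufm, the elongation factor that brings charged tRNA, was at 0.13, 0.22 and 0.08 in the same order and was not called.

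Assembly and RNA modification factors were the longest of the pathway lists, with 27 genes. By DESeq2 1 was called in the first comparison, 1 in the second and 5 in the third, and by edgeR 0, 0 and 1, the last being Nsun3 (adjusted p = 0.0155, edgeR). Against the DESeq2 shares of 4.33%, 6.67% and 9.85% over all genes tested, 1 of 27 lies near the background and 5 of 27 above it. The GTPase Noa1 rose by 0.42 in Van against Con (adjusted p = 0.00835, DESeq2) and fell by 0.32 in VanLip against Van (adjusted p = 0.0368, DESeq2). Its level was 6.12, 5.59 and 5.23 FPKM in Con, 6.79, 7.61 and 8.44 in Van and 5.81, 6.52 and 5.77 in VanLip, so Van lay above the other 6. Nsun3, a methyltransferase of mitochondrial RNA, rose in VanLip by 0.38 against Con (adjusted p = 0.00452, DESeq2) and by 0.46 against Van (adjusted p = 0.000111, DESeq2). Against Van, the small subunit factor Rbfa also rose by 0.31, Mpv17l2 by 0.29 and the GTPase Gtpbp10 by 0.44 (adjusted p from 0.0106 to 0.034, DESeq2). The median of the list was 0.01, 0.10 and 0.02 in the 3 comparisons.

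Of 19 mitochondrial tRNA synthetases, Lars2, for leucine, was called in both comparisons with VanLip. It was 15.2, 17.9 and 11.1 FPKM in Con, 14.9, 11.9 and 14.3 in Van and 41.0, 39.4 and 29.3 in VanLip, so VanLip lay wholly above the other 6. The log2 fold changes were 1.29 ± 0.18 against Con (SE, adjusted p = 2.90e-10, DESeq2) and 1.40 ± 0.18 against Van (SE, adjusted p = 1.69e-12, DESeq2), and edgeR called both (adjusted p = 0.0115 and 0.00332). The other synthetases were not called, and the median of the list was 0.09 and 0.02 in these comparisons. For Van against Con, 0 of 19 were called, with 2 higher at an unadjusted p under 0.05 and 0 by edgeR.

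Of 8 genes of mitochondrial transcription, the RNA polymerase Polrmt rose by 0.42 in Van against Con (adjusted p = 0.0362, DESeq2), a call lost under edgeR (adjusted p = 0.128), and 0 were called in the others, with 2 at an unadjusted p under 0.05 in each and 0 by edgeR. Tfam, which packages and transcribes mitochondrial DNA, was at -0.10, 0.08 and 0.18 and was not called. Of 10 regulators of mitochondrial biogenesis, the coactivator Pprc1 fell by 0.42 in VanLip against Van (adjusted p = 0.014, DESeq2), a call lost under edgeR (adjusted p = 0.0669), and 0 were called in the comparisons with Con, with 1 and 4 lower at an unadjusted p under 0.05 and 0 by edgeR. Among the factors whose motifs were searched, Nrf1 was at -0.10, -0.14 and -0.04, Gabpa at 0.02, 0.07 and 0.05 and Yy1 at 0.10, 0.12 and 0.02, with no call for any of the 3. Myc, whose motif was not searched, was at -0.06, -0.37 and -0.31 and was not called.

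The 3 gene sets nearest in function did not share 1 pattern. The 81 nuclear genes of the respiratory chain and ATP synthase had medians of -0.03, 0.09 and 0.11 in the 3 comparisons, with 0, 3 and 12 genes called by DESeq2, all higher, and 0 by edgeR in each comparison (for the first, 2 higher and 2 lower at an unadjusted p under 0.05). The share called higher over all genes tested was 2.27%, 2.98% and 4.58%, against which 3 of 81 lies near the background and 12 of 81 above it. In both comparisons with VanLip most of the 81 lay to the same side as the 77 genes. Fitted values above 0 numbered 66 of 81 against Con and 71 against Van, beside 68 and 63 of the 77. Before adjustment 18 of the 81 were higher against Con and 22 against Van at p under 0.05, with 0 lower in both (DESeq2). The 82 cytosolic ribosomal protein genes had medians of 0.00, -0.03 and -0.04, with 0 called in the first (1 higher and 1 lower unadjusted, 0 by edgeR), 5 lower in the second, and 2 higher and 8 lower in the third (DESeq2), where edgeR called 1 in each of these 2. The share called lower over all genes tested was 3.69% in the second and 5.27% in the third. The 13 messengers that the mitochondrial ribosome translates were lower in both vancomycin groups, with medians of -0.36 and -0.28 against Con and 0.09 for VanLip against Van. Of these 13, 12 were called lower in Van and 11 in VanLip against Con (DESeq2), and edgeR called 5 and 0. Over the same libraries 0 of the 77 ribosomal protein genes were called lower against Con in either comparison, where 2 and 0 were lower at an unadjusted p under 0.05 and edgeR called 0 lower. Over all genes tested the share called lower was 2.06% and 3.69%, so a count of 0 of 77 lies near the background. The summed FPKM of the 13 was 20801 to 22962 in Con, 16213 to 18805 in Van and 17489 to 19283 in VanLip, so Con lay above both. The medians share libraries between comparisons and are given side by side without a test of their difference.

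**Figure D5:**
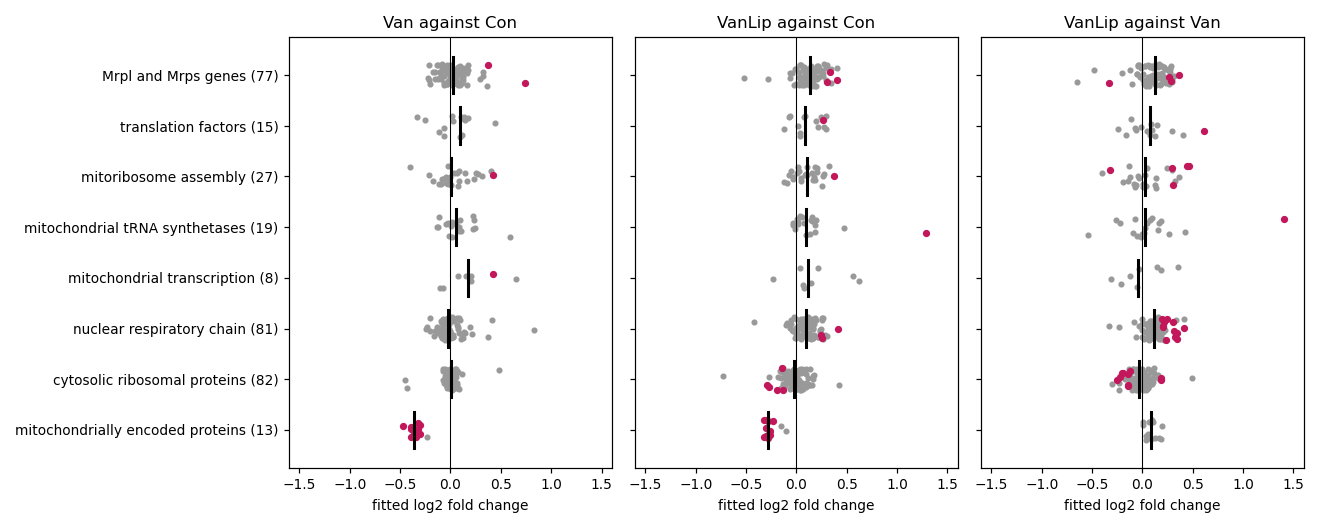
Fitted log2 fold change of each gene in 8 gene sets, by comparison, with called genes in red and the median as a black line. A total of 1 gene in Van against Con and 2 in VanLip against Van lie beyond the axis limit of 1.6, and the mitochondrially encoded genes sit left of 0 in both comparisons with Con while the Mrpl and Mrps genes do not.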

How the data were processed

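Messenger RNA of splenic monocytes from 9 mice was sequenced with a stranded kit, and the titles gave each library's group and number. The authors, per the labels, aligned reads to GRCm38 with HISAT2 2.2.1, handled alignments with SAMtools 1.9 and estimated transcripts with StringTie 2.1.3. They deposited FPKM per gene, scaled for length and depth, and expected counts per gene made with tximport, which are not normalized. The annotation release and any use of strand in counting are not given in the sources used here. The study's own test was DESeq2 1.38.3. A commonest low count of 1.33 in Con and Van and 2 in VanLip, under the 75-base reads that tximport assumes, gave the read lengths and fragments.

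Expected counts were rounded and tested in R 4.3.3 with DESeq2 1.42.0 (Wald test, median-of-ratios size factors, group as the only term, 9 libraries in 1 fit, all genes with a value above 0), with Benjamini-Hochberg adjustment over all genes and independent filtering. The threshold for a call was an adjusted p of 0.05. Fold changes are fitted log2 values, and p-values are two-sided. Levels between genes are FPKM, and normalized counts are counts divided by size factors. Alternatives were edgeR 4.0.16 (quasi-likelihood, TMM), limma 3.58.1 on quantile-normalized log2 FPKM (pseudocount 1 or 0.1, or mean FPKM of at least 1), TMM library sizes, at least 10 counts in 3 libraries, no independent filtering, only the 2 groups compared, a replicate block, thinned VanLip fragments, a transcript length offset, and leaving out each library in turn. Tests were tested on simulated data, in which DESeq2 called unchanged genes more often than its threshold states, so single calls near the threshold carry more error than their adjusted p.

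Named genes were those called, the 5 of lowest p in each direction per comparison, the 5 highest and lowest by FPKM, Mrps18a to Mrps18c, Mrps30 and Mrps36, and, of the pathway lists, those called and Tfam, Nrf1, Gabpa, Myc, Tufm and Dap3. Overlapping neighbours and the mitochondrially encoded, respiratory chain and cytosolic ribosomal sets were added for comparison. The genes, lists and tests were chosen with earlier results of these data known. Coordinates are those of GENCODE M21 on GRCm38.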

Additional observations from a re-analysis of the deposited data

How the results depend on the processing

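The median log2 fold change of the 77 genes kept its sign under every alternative run. It was 0.015 to 0.0338 for Van against Con (0.00901 to 0.05 leaving out 1 library), 0.107 to 0.157 for VanLip against Con (0.116 to 0.152) and 0.0783 to 0.145 for VanLip against Van (0.0798 to 0.133). The ends for VanLip against Con were the transcript length offset at 0.107 and TMM library sizes at 0.157. The cause was not tested. Counts of called genes were less stable. For Van against Con, called as 2, they were 1 with edgeR, 0 with limma at a pseudocount of 0.1, 1 with limma at a pseudocount of 1 with or without the mean FPKM filter, and 1 to 4 leaving out 1 library. For VanLip against Con, called as 3, they were 5 with TMM library sizes, 1 with edgeR and in each of the 3 limma fits, and 1 to 5 leaving out 1 library. Mrps16 was not among the called genes with thinned fragments, nor was Mrps26 with the length offset. For VanLip against Van, called as 4, they were 5 with TMM library sizes, all higher, 4 with at least 10 counts in 3 libraries, 3 with the replicate block, and 2 with thinned fragments (which has fewer fragments) and with the length offset, 1 with edgeR, without independent filtering and with only the 2 groups compared, 0 and 0 in limma at pseudocounts of 0.1 and 1, 1 in limma with the mean FPKM filter, and 0 to 6 leaving out 1 library.

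Values of single genes that changed sign were all near 0. Mrpl30 for VanLip against Con was 0.00347 without the second Con library (-0.11 to 0.00347 over libraries left out), and Mrps27 was 0.0038 without the third Con library and 0.0579 without the first VanLip library (-0.118 to 0.0579). Of the other single-gene values under an alternative, 502 kept their direction and call, 84 lost the call and 11 gained it. The group means of summed FPKM, leaving out 1 library (chosen after seeing the data), were 1016 to 1036 in Con, 1028 to 1078 in Van and 1098 to 1138 in VanLip.

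Same-numbered libraries did not deviate together, with correlations of deviations from -0.065 to 0.1234, so the numbers were not taken to pair mice. With the replicate block 1 gene was called for Van against Con, Mrps7, as Mrps6 had an adjusted p of 0.0633 (DESeq2). Depth was higher in each VanLip library than in any other, and 3 mice per group limit the size of a difference that could be called.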
